A study of Spinacia oleracea with 6 samples.

Results

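In spinach, Spinacia oleracea, 21 annotated genes were read at a clear level in every control library and at or close to 0 in every heat library. They were chosen by that pattern: at least 1 CPM (counts per M reads on a common scale) in each control library and at most 0.2 CPM in each heat library. The rule was applied to 30675 annotated genes of the 32450 features in the count table, and 15264 of these met the control floor, so the 21 genes are 0.138% of the genes that could have met the heat limit. The values that chose the genes are those of the heat and control libraries themselves, so the levels and fold differences given for them are a description, and nothing is tested with them.

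The libraries were made from total RNA of plants grown in an illumination incubator, with 3 libraries per regime. The control plants had 20 °C days and 15 °C nights. The heat plants had 35 °C days and 25 °C nights. The labels give 4 days of treatment for both regimes. The labels give neither the tissue, the cultivar nor the plant age, and they do not say whether the libraries of a regime are from different plants, so the spread between them may be technical.

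Spinach is a leafy crop of cool seasons. The level of a transcript in bulk RNA is set by how fast it is made, how fast it is degraded and how many of the sampled cells hold it, and fewer such cells cannot be told apart from less RNA per cell here. All 21 genes matched the BTI_SOV_V1 reference gene table, against 95.7% of the genes that met the control floor. The table lists 20 of them as protein-coding and 1, LOC110787453, as a long non-coding RNA, a transcript class defined by the lack of a protein product. It gives none of them a name beyond a locus number, so what their products do is not stated here.

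Library totals were 42.3 to 56.8 M counted reads. On the scale used, the control floor was reached with 39 to 50 reads and the heat limit with 9 to 11 reads, depending on the library. The median-of-ratios size factor of control library 3 was the lowest, at 0.781, against 1.02 to 1.15 in the other 5 libraries, so a read there counts for more CPM. With 1 read worth 0.0179 to 0.0262 CPM, a gene without reads is not shown to be silent. Over the 3 heat libraries together, 0 reads allow a level of up to 0.0188 CPM (3 counts, counting error only).

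**Figure D1:**
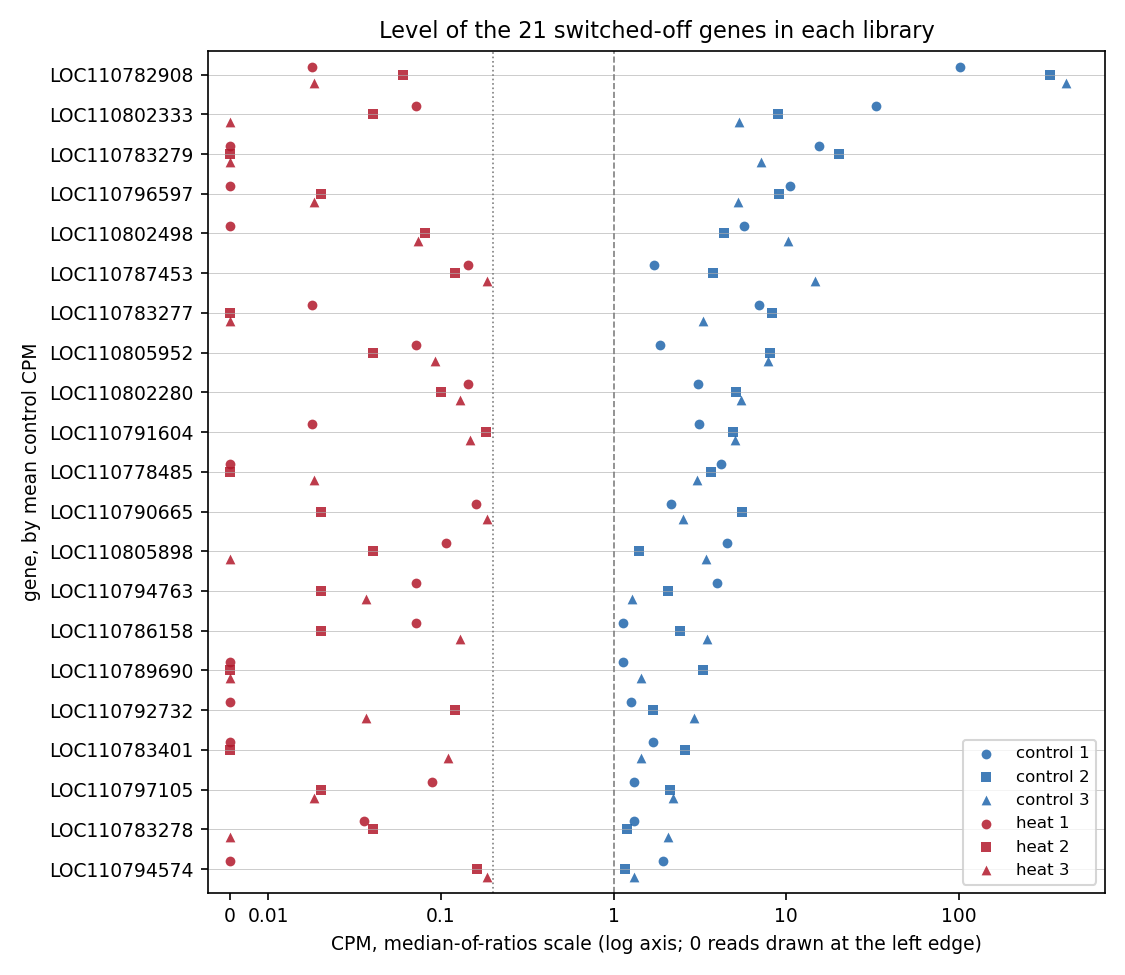
CPM of each of the 21 genes in the 3 control libraries (blue) and the 3 heat libraries (red), on a log axis with 0 reads drawn at the left edge. The dashed line is the control floor of 1 CPM and the dotted line the heat limit of 0.2 CPM, so the gap between them is set by the rule. LOC110782908 stands far to the right of the others in control, at 101 to 419 CPM.

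One gene carried most of the reads. LOC110782908, protein-coding, was read at 101, 338 and 419 CPM in control libraries 1, 2 and 3, and at 0.0179, 0.0605 and 0.0184 CPM in heat libraries 1, 2 and 3. In reads, these are 5032, 16747 and 15999 against 1, 3 and 1. Control library 1 was the low one, and even that library lay 1678-fold above the highest heat library. Pooled over libraries (summed reads over summed size factors) the gene was 8792-fold lower in heat (95% interval 3767 to 27079, counting error only), and 0.0114% of its control level was left. It held 37778 of the 51428 control reads of the 21 genes, or 73.5%. Of all 20145 tested features it had the largest fitted decrease, with a log2 fold change of -13.04 (SE 0.87), and -13.75 without heat library 2, which held 3 of its 5 heat reads.

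Per length, LOC110782908 was also the most abundant. Its level in control was 137 ± 73.1 FPKM (counts per kilobase and M reads, SD, n = 3), above 95.5% of the genes that met the control floor. The non-coding LOC110787453, counted over only 280 bp, came next at 19.6 ± 19.0 FPKM, above 70.7% of them. The other 19 genes had control means of 0.858 to 8.76 FPKM. The median of the 21 genes was 2.27 FPKM, against 9.60 FPKM for the genes that met the control floor.

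A trio of genes of the set are next to each other: LOC110783277, LOC110783278 and LOC110783279, all protein-coding, follow one another directly in the BTI_SOV_V1 gene order. No other pair of the 21 genes is adjacent there. Whether the 3 are similar in sequence was not examined here. How the authors' counting treated reads that align to several places is not given in the labels or the files, so reads of near-identical copies could have been shared out or dropped.

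LOC110783279 was read at 15.5, 20.3 and 7.13 CPM in control libraries 1, 2 and 3 and had 0 reads in all heat libraries. Against 0.0188 CPM, the floor of 3 counts over the heat group, its control mean was at least 762-fold higher. Its first neighbour but one, LOC110783277, was read at 6.94, 8.33 and 3.28 CPM in control and had 1 read in heat library 1 and 0 reads in the other heat libraries. The pooled ratio of LOC110783277 was 1026 (95% interval 184 to 40582, counting error only) and rested on that single read. Without heat library 1 its log2 fold change went from -9.46 to -11.22. No heat reads of the gene were left in that refit, so -11.22 is not a measured size. The gene between them, LOC110783278, was lower in control, at 1.31, 1.19 and 2.07 CPM, and had 2, 2 and 0 reads in heat (59.1-fold lower, interval 22.7 to 219).

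Across the control libraries, the outer genes of the trio moved alike and the middle one did not. Of the summed control CPM of LOC110783279, 36.0%, 47.3% and 16.6% came from control libraries 1, 2 and 3. The corresponding shares of LOC110783277 were 37.4%, 44.9% and 17.7%. For LOC110783278 they were 28.7%, 26.0% and 45.3%, with control library 3 the highest. These are 3 libraries, and the likeness is given without a test.

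The genes around the trio were not uniformly lower in heat. Directly before it, LOC110800931 had 1, 7 and 10 reads in control and 0 in every heat library, too few for the control floor or for the test. Before that gene, LOC110801100 rose. Its control libraries were at 18.7, 15.2 and 17.6 CPM and its heat libraries at 70.4, 47.0 and 50.6 CPM, with a log2 fold change of 1.71 (SE 0.19, adjusted p = 0.00173, edgeR's quasi-likelihood test), and the heat libraries lay above all control libraries. LOC110801112, one gene further, rose from a control mean of 0.554 ± 0.192 CPM to a heat mean of 2.94 ± 1.08 CPM (edgeR log2 fold change 2.40, SE 0.45, adjusted p = 0.0102). Leaving out control library 2 ended that call (adjusted p = 0.0520).

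On the other side of the trio, LOC110783280 was read at 0.222, 0.0605 and 1.78 CPM in control and 2.52, 1.47 and 0.240 CPM in heat. Its groups overlapped and it did not pass (edgeR adjusted p = 0.572). LOC110783281, the next, had a control mean of 39.8 ± 6.39 CPM and a heat mean of 31.1 ± 4.15 CPM (edgeR adjusted p = 0.182). Of the other measured genes drawn around the trio, LOC110800785 and LOC110783228 had 0 reads in all 6 libraries and LOC110800791 had 5 reads, all in heat library 3.

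**Figure D2:**
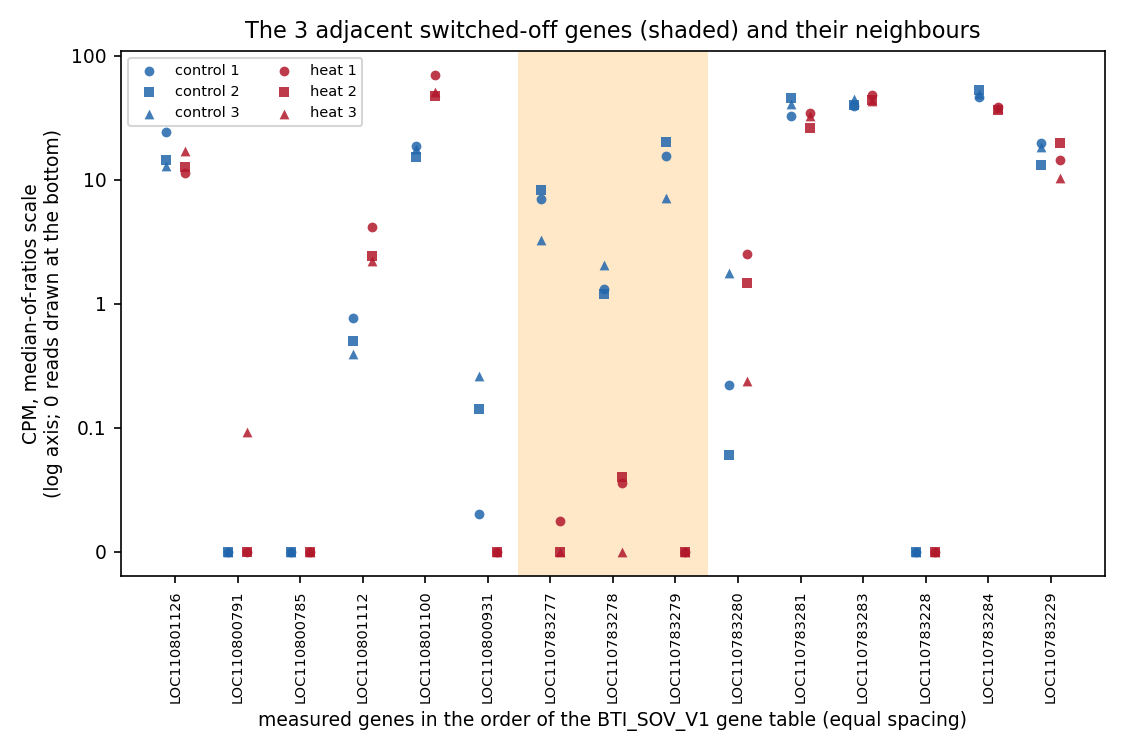
CPM of the 3 adjacent genes (shaded) and of 6 measured genes on each side in BTI_SOV_V1 order with equal spacing, for control (blue) and heat (red) libraries. The axis is logarithmic with 0 reads drawn at the bottom. The shaded genes lie at 0 to 0.0403 CPM in heat, while LOC110801100 on the left was higher in heat, at a mean of 56.0 CPM.

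Among the remaining genes with control means above 5 CPM, the control libraries often differed several-fold. LOC110802333 was read at 33.2, 8.97 and 5.32 CPM in control libraries 1 to 3, so library 1 alone gave 69.9% of its control signal. In heat it had 4, 2 and 0 reads, and pooled it was 445-fold lower (interval 204 to 1214). Without control library 1 its log2 fold change went from -8.63 to -7.47, and without heat library 1 to -9.49. Like all intervals of pooled folds here, that of LOC110802333 covers counting error only and leaves out the spread between libraries.

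LOC110787453, the non-coding RNA, had the opposite order in control, with 1.71, 3.79 and 14.6 CPM. Control library 3 gave 72.7% of its signal. Its heat levels were 0.143, 0.121 and 0.184 CPM, from 8, 6 and 10 reads, so it was detected in every heat library. Pooled, it was 40.3-fold lower (interval 26.9 to 63.3, counting error only). Without control library 3 its log2 fold change moved from -5.46 to -4.18.

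LOC110796597 was steadier in control, at 10.6, 9.05 and 5.29 CPM, and had 0, 1 and 1 reads in heat. Its pooled ratio was 684 (interval 189 to 5652). LOC110802498 was read at 5.69, 4.37 and 10.2 CPM in control and had 0, 4 and 4 reads in heat, 129-fold lower when pooled (interval 65.4 to 301). LOC110805952 had 1.86, 8.08 and 7.84 CPM in control, with library 1 low as for LOC110782908, and 4, 2 and 5 reads in heat (83.8-fold lower, interval 46.6 to 169).

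LOC110802280 and LOC110791604 were the most evenly read of the 10 most abundant genes. LOC110802280 had 3.07, 5.10 and 5.48 CPM in control and kept 8, 5 and 7 reads in heat, 35.7-fold lower when pooled (interval 22.9 to 58.9). LOC110791604 had 3.11, 4.92 and 5.06 CPM in control and 1, 9 and 8 reads in heat (38.2-fold lower, interval 24.0 to 64.9). Both were thus seen in all 3 heat libraries, although at low counts.

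The other 10 genes outside the trio had control means of 1.47 to 3.63 CPM. LOC110789690 had 0 reads in all heat libraries, like LOC110783279, and 1.13, 3.31 and 1.44 CPM in control. Against the same floor its control mean was at least 104-fold higher. LOC110786158, at 1.13, 2.44 and 3.46 CPM in control, kept 4, 1 and 7 reads (29.96-fold lower, interval 16.9 to 58.6). LOC110790665, at 2.16, 5.58 and 2.52 CPM, kept 9, 1 and 10 reads (27.9-fold lower, interval 17.9 to 46.1).

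The remaining 6 genes were named only to complete the set, after their values were seen. LOC110778485 had the narrowest spread in control, at 4.17, 3.69 and 3.04 CPM, and a single read in heat, in library 3, for a pooled ratio of 589 (interval 105 to 23301). Without that library its log2 fold change went from -8.69 to -10.47, a refit with no heat reads of the gene, so -10.47 is not a measured size. The log2 fold change was -8.22 without heat library 1 and -8.29 without heat library 2. LOC110783401 had 1.69, 2.58 and 1.44 CPM in control, and all of its 6 heat reads were in heat library 3. Without heat library 3 its log2 fold change went from -5.58 to -9.54. No heat reads of the gene were left in that refit, so -9.54 is not a measured size. The log2 fold change was -5.00 without heat library 1 and -5.05 without heat library 2. LOC110805898 (4.54, 1.41 and 3.43 CPM in control), LOC110794763 (3.99, 2.08 and 1.28 CPM), LOC110797105 (1.31, 2.14 and 2.20 CPM) and LOC110792732 (1.27, 1.69 and 2.91 CPM) kept 7 to 8 reads each over the heat libraries and were 37.5- to 62.0-fold lower when pooled. Of these, LOC110805898 went from a log2 fold change of -5.91 to -7.14 without heat library 1 and to -5.34 without heat library 3. LOC110797105 went from -5.36 to -6.42 without heat library 1, to -5.05 without heat library 2 and to -5.01 without heat library 3. LOC110792732 went from -5.18 to -6.55 without heat library 2 and to -4.59 without heat library 1.

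LOC110794574 had the smallest difference of the 21 genes. It was read at 1.94, 1.17 and 1.31 CPM in control and at 0, 0.161 and 0.184 CPM in heat, where 0, 8 and 10 reads remained. Pooled, it was 13.2-fold lower (interval 8.14 to 22.7), and 7.58% of its control level was left. The next largest remainder was the 3.58% of LOC110790665.

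In total 186 reads of the 21 genes were left in heat, 57, 54 and 75 in heat libraries 1 to 3, which is 62.0 ± 11.4 per library (SD, n = 3), against 10300, 21718 and 19410 in the control libraries. No heat library was free of them. Of the 63 values in heat, 19 were 0, with 8, 5 and 6 genes at 0 in libraries 1 to 3. Summed over the heat libraries, 2 genes had 0 reads, 3 had 1 to 3, 9 had 4 to 9 and 7 had at least 10. Only 9 of the 21 were detected in all 3 heat libraries. "Switched off" therefore means at or under the limit: the 7 genes with at least 10 reads, among them LOC110787453 with 24, were still counted in heat.

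**Figure D3:**
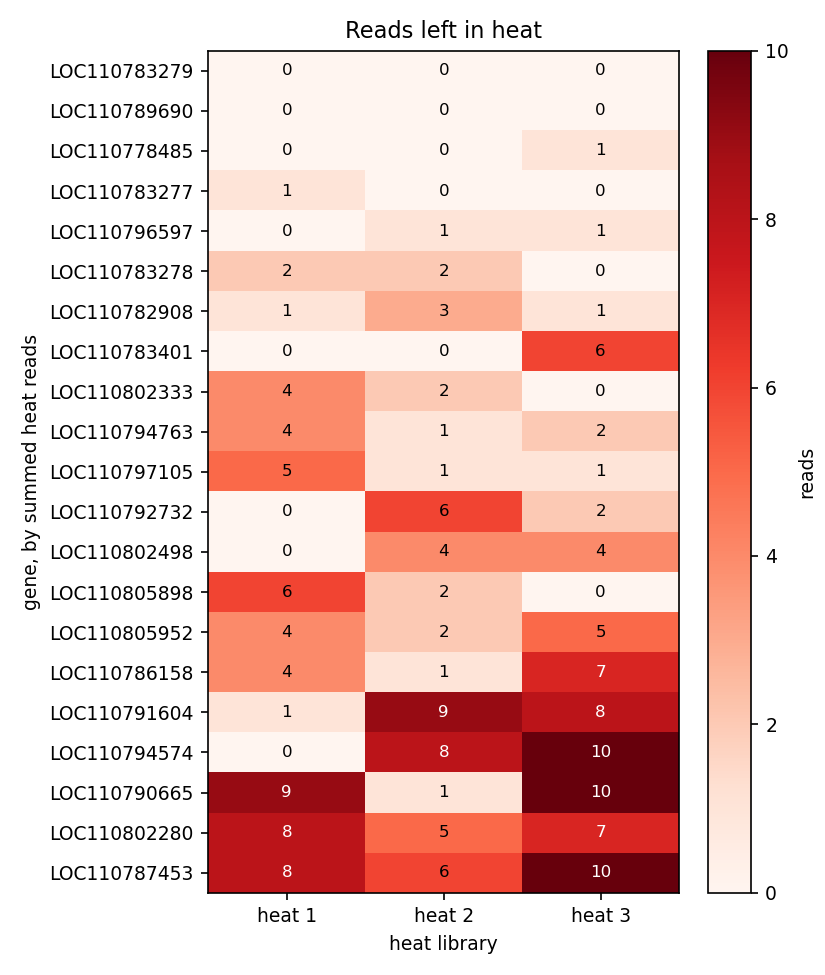
Reads of each of the 21 genes in heat libraries 1 to 3, ordered by their sum, with the read number written in each cell and shown by colour. LOC110783279 and LOC110789690 have 0 in all cells, and LOC110787453, at the bottom, has 8, 6 and 10.

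The heat limit cuts through a continuous range of genes. Just inside it were LOC110787453, LOC110790665 and LOC110794574, each with 10 reads (0.184 CPM) in heat library 3. Just outside were LOC110799062 at 0.202 CPM, LOC110791995 at 0.203 CPM and LOC110783259 at 0.222 CPM in their highest heat library. LOC110791995 missed the limit with 11 reads in heat library 3, although its control levels of 6.29, 17.8 and 40.0 CPM are above those of most of the 21 genes. At the control floor, LOC110789690 and LOC110786158 (both 1.13 CPM in their lowest control library) and LOC110794574 (1.17 CPM) were just inside. LOC110778699 (0.887 CPM), LOC110797809 (0.847 CPM) and LOC110798033 (0.839 CPM) were just outside.

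Above the limit the number of genes grew quickly. Of the genes that met the control floor, 47 had their highest heat library between 0.2 and 0.5 CPM, 109 between 0.5 and 1 CPM and 464 between 1 and 2 CPM. The other 14623, or 95.8%, were above 2 CPM in at least 1 heat library. No gene with a reference name met the rule. Of all genes that met the control floor, 0.138% met the rule, so 0 among so few named genes is near that share and nothing is read from it. Of 121 named protein-coding genes that met the control floor, the lowest share left in heat was that of NIA (LOC110786500), nitrate reductase, at 5.18%. Its control mean was 2135 CPM and its heat libraries 1 to 3 were at 63.1, 60.0 and 209 CPM, so it was still an abundant transcript in heat.

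**Figure D4:**
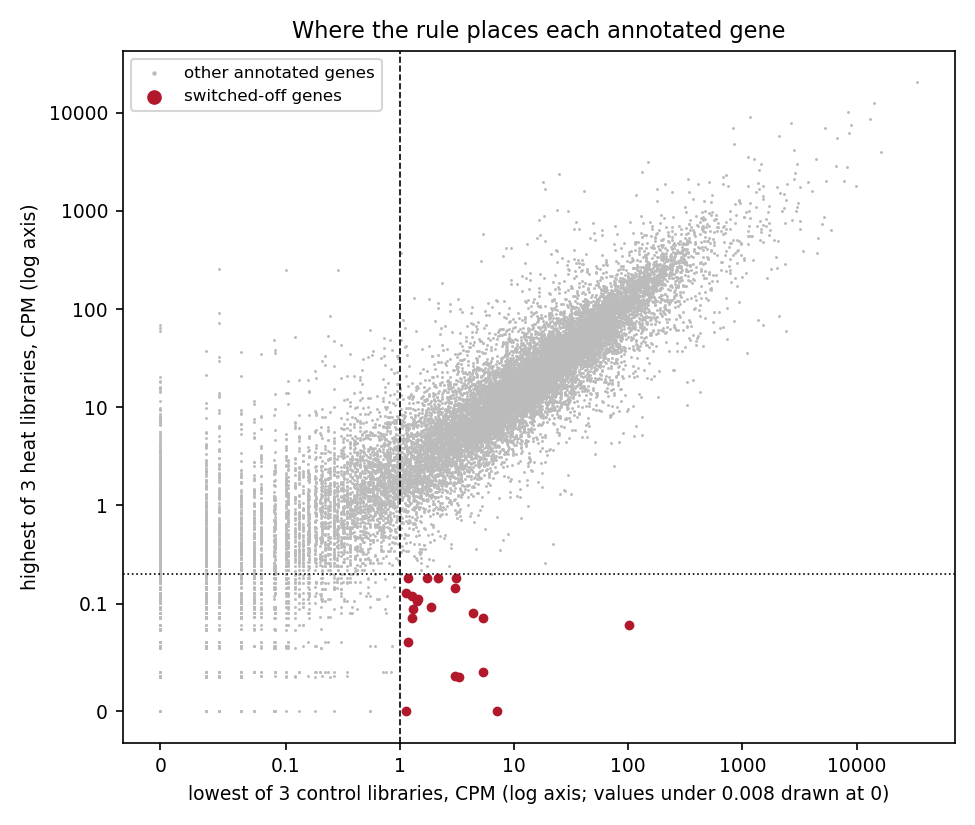
Each annotated gene by its lowest control library (horizontal) and highest heat library (vertical), in CPM on log axes, with values under 0.008 CPM drawn at 0. The 21 switched-off genes (red) fill the corner right of the control floor (dashed) and under the heat limit (dotted). LOC110782908, at 101 CPM in its lowest control library, stands apart, and the grey points above the dotted line show no gap at the limit.

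In the comparison of heat with control over all features, 13.6% of 20145 tested features were called lower and 11.6% higher (edgeR's quasi-likelihood test, threshold 0.05 after Benjamini-Hochberg adjustment), and scaling by library size alone changed the numbers from 2735 lower and 2339 higher to 1471 and 6288. All 21 genes passed the filter on low counts and were called lower, which the rule made likely, so nothing is read from that count. Their log2 fold changes ran from -13.04 to -3.65 with a median of -5.78, against a median of 0.01 over all tested features. Of the 25 largest decreases, 8 were theirs, and of the 100 largest, 20. The rule made such places likely too, so nothing is read from these counts. The call of LOC110794574 ended when any control library, or heat library 2 or 3, was left out (adjusted p from 0.0567 to 0.0845), and that of LOC110783401 without control library 2 (adjusted p = 0.0544).

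The spread between control libraries was used by the rule only through the floor of 1 CPM. Over the 21 genes, the coefficient of variation of control CPM (SD as a percentage of the mean) had a median of 45.5%, from 15.7% for LOC110778485 to 103% for LOC110787453. The median over the 15264 genes that met the control floor was 15.4%, and each of the 21 genes was above it. Counting error alone would give a median of 7.70% and at most 12.2% for the 21 genes, at their mean control reads. For the 6743 genes with a control mean in the range of the 21 without LOC110782908, a background chosen after seeing the data, the median was 19.3%.

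The highest control library was at least 2-fold above the lowest for 13 of the 21 genes, against 14.6% of the genes that met the control floor. Genes with somewhat higher heat levels lay between. The median coefficient of variation was 31.0% for the 47 genes with 0.2 to 0.5 CPM in their highest heat library, 27.5% for the 109 genes up to 1 CPM, 24.1% for the 464 genes up to 2 CPM and 15.1% above that. Median control means in the 3 steps from 0.2 to 2 CPM were close to each other, at 2.17 to 2.36 CPM, and that of the 21 genes was 3.63 CPM. The genes above 2 CPM had a far higher median control mean, 20.0 CPM, and all genes that met the control floor had 18.7 CPM. Comparisons with these groups therefore set genes of unlike level side by side, and the part of level in the spread was not tested. With any 2 control libraries, the median of the 21 genes was 34.9% to 40.5% and that of the background 11.1% to 16.9%.

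The spread had no single direction. Control library 3 was the highest for 9 of the 21 genes and libraries 1 and 2 for 6 each (42.9%, 28.6% and 28.6%), against 39.2%, 37.6% and 23.2% of the genes that met the control floor. When libraries were scaled by their totals alone, library 2 was the highest for 9 genes and libraries 1 and 3 for 6 each, so the order of libraries 2 and 3 depends on the scaling. Library 1 gave 69.9% of the control signal of LOC110802333 and 8.51% of that of LOC110787453. The summed control level of all 21 genes was 208, 438 and 509 CPM in libraries 1 to 3. Without LOC110782908, that of the other 20 genes was 106, 100 and 89.4 CPM, so single genes differed between libraries far more than the sum of the 20 did. A sum evens out genes of opposite order, so nothing is read from its steadiness.

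**Figure D5:**
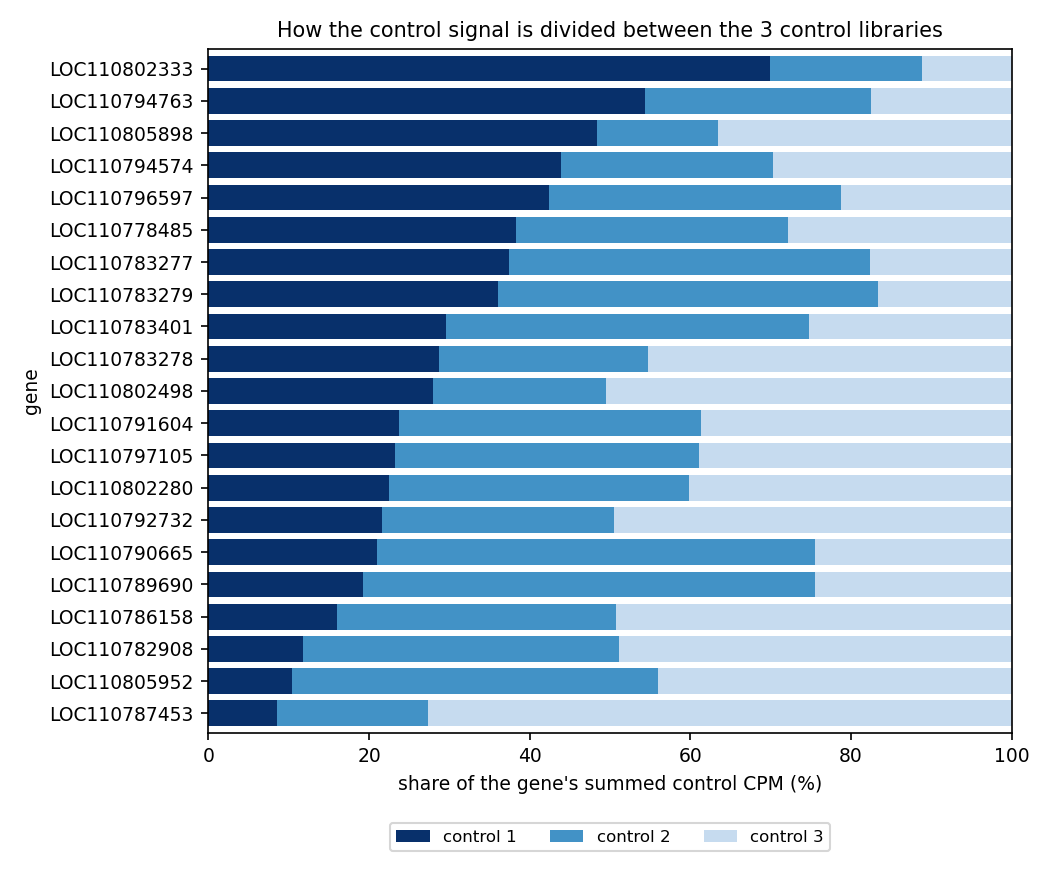
Share of each gene's summed control CPM (%) that came from control library 1 (dark), 2 (middle) and 3 (light), ordered by the share of library 1. The shares of library 1 run from 69.9% for LOC110802333 to 8.51% for LOC110787453, and LOC110783277 and LOC110783279 have nearly the same division.

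Apart from the trio, none of the genes listed next to the 21 met both limits of the rule. Of all genes that met the control floor, 0.138% met the rule, so 0 among so few neighbours is near that share and nothing is read from it. Of 42 neighbour positions in BTI_SOV_V1 order, 4 were taken by genes of the trio, whose middle gene was counted from both sides. Genes that are not in the count table took 11, and other measured genes took 27, 5 of these without a read in any library. In heat, 9 of the 27 were at most at 0.2 CPM in every library, those 5 and the thinly read LOC110782811, LOC110801844, LOC110800931 and LOC110802487, and 0 of the 9 met the control floor. The share of all annotated genes under that heat limit is not given here, so nothing is read from the 9. Among the 18 that could be tested, 3 (16.7%) were lower and 1 (5.56%) higher in heat by edgeR's quasi-likelihood test, shares to be read against the 13.6% and 11.6% of all tested features, with a median log2 fold change of -0.22 against 0.01 over all tested features.

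LOC110802289, next to LOC110802280, was the tested neighbour with the greatest decrease. It went from control levels of 1.47, 1.98 and 1.91 CPM to heat levels of 0.286, 0.302 and 0.332 CPM, with a log2 fold change of -2.53 (SE 0.40, edgeR adjusted p = 0.00539). Its groups did not overlap, and its heat levels were above those of LOC110802280, which had the higher level in control. This pair is thus lower in heat side by side, with only 1 of the genes under the limit.

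The one neighbour called higher in heat was LOC110805953, next to LOC110805952. It went from 0.666, 0.766 and 0.786 CPM under control conditions to 3.57, 2.10 and 3.41 CPM in heat (edgeR log2 fold change 2.03, SE 0.36, adjusted p = 0.00868), while LOC110805952 was near 0 there. The calls of LOC110802289 and LOC110805953 held in all 14 other fits.

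The other neighbours called lower kept most of their level. LOC110782909, next to LOC110782908, went from 55.7, 61.8 and 57.5 CPM under control conditions to 40.5, 28.7 and 27.5 CPM in heat, an edgeR log2 fold change of -0.85 (SE 0.18, adjusted p = 0.0150). LOC110792731, next to LOC110792732, went from 349, 333 and 356 CPM to 206, 218 and 203 CPM (log2 fold change -0.72, SE 0.14, edgeR adjusted p = 0.0101). Both calls ended without control library 2 (adjusted p = 0.0719 and 0.0537), with a replicate block (adjusted p = 0.0522 and 0.0693), under scaling by library size alone (log2 fold changes -0.40 and -0.26) and with limma on log2(FPKM + 1) or log2(FPKM + 0.1), and held in the other 9 of 14 fits.

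The 21 genes were of common lengths. Recovered from the authors' FPKM values, their lengths ran from 280 bp for LOC110787453 to 3087 bp for LOC110805952, with a median of 1547 bp, against 1662 bp for the genes that met the control floor and 1477 bp for all annotated genes with reads. Long non-coding RNAs made up 1 of the 21 and 7.95% of the matched genes that met the control floor.

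With the rule turned round, to at most 0.2 CPM in each control library and at least 1 CPM in each heat library, 21 annotated genes were also found. Their median length was 1454 bp, and 20 of them matched the reference table, all as protein-coding. Their median coefficient of variation in heat, where they were read, was 37.9%, against 45.5% in control for the switched-off genes. These values describe both sets, and their difference was not tested.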

How the data were processed

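The 6 libraries, 3 per regime, were grouped by their labels. The authors deposited read counts per gene, as whole numbers without normalization. They also deposited FPKM values, which for all 24889 features with reads equalled count over a fixed length and the library total (relative tolerance 1e-06), a relation that gave the lengths. The submitters' processing notes name HISAT2 (2.0.4), HTSeq (0.9.1) and DESeq (1.18.0) with no roles. Neither labels nor files give the genome build, annotation, strand use or handling of multiply aligned reads, so no coordinates are printed. The BTI_SOV_V1 gene order used for neighbours may therefore differ from that of the build on which the reads were counted.

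Counts were divided by median-of-ratios size factors, from 20305 features with reads in all libraries, and scaled to CPM by the mean total of 48.8 M. The rule left out the 1718 gene models added by the authors and 57 features numbered 2715500 to 2715799. Pooled folds are summed reads over summed size factors, control against heat, with exact conditional 95% intervals. These intervals cover counting error only, not the spread between libraries. edgeR 4.0.16 in R 4.3.3 was fitted over the whole table (quasi-likelihood, TMM, default low-count filter, group as the only term, two-sided) and tested on simulated data. limma 3.58.1, also on log2(FPKM + 1) and log2(FPKM + 0.1), and DESeq2 1.42.0 were alternatives.

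Named genes were the 10 most abundant in control, those without heat reads, adjacent ones, any with a reference name, and those nearest to each limit. The genes, lists and tests were chosen with earlier results of these data known. Planned searches of promoter motifs, protein signatures and gene descriptions were not run, as no such tables were used here.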

Additional observations from a re-analysis of the deposited data

How the results depend on the processing

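The number of switched-off genes follows its limits. It was 12 with a heat limit of 0.1 CPM and 68 with 0.5 CPM, 44 with a control floor of 0.5 CPM and 10 with 2 CPM, and 98 when the limits were set on group means. Leaving out 1 library gave 22 to 36 genes, with all 21 among them each time. With fewer libraries there are fewer limits to meet, so apart from shifts of scale the rule itself set this outcome. TMM scaling gave the same 21 genes, library totals alone gave 17 of them, and including the added gene models added 0. Over all tested features, 2735 were lower and 2339 (46.1%) higher. The count of lower features was 1471 when libraries were scaled by size alone (6288 higher, 81.0%, as the median log2 fold change moved from 0.01 to 0.47), 1562 with limma on log2(FPKM + 1) and 1487 on log2(FPKM + 0.1), and 1427 to 2464 without 1 library, lowest without control library 2 and 1542 without heat library 1. Replicate numbers did not pair the libraries: same-numbered libraries had correlations of deviations of -0.133, -0.123 and -0.292. With a replicate block 1580 features were lower, and the call of LOC110794574 was lost (adjusted p = 0.0977), as was that of LOC110787453 with limma-voom (adjusted p = 0.0558). The median control coefficient of variation was 34.9% to 40.5% without 1 control library. Log2 fold changes of the 21 genes kept their sign in all 252 refits, from -13.75 to -0.85. The gap that the rule set between control and heat libraries all but fixed that sign, so nothing is read from it. The log2 fold changes were marked as moved in 81 refits, 21 of them on log2(FPKM + 1), which compresses low values. Such a mark does not mean a shift beyond the SE of the main fit. LOC110783401, for example, was marked without heat library 1, with a shift from -5.58 to -5.00 and an SE of 1.14. Depth limits the folds of genes with few heat reads, as their intervals show.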
